A study of Sus scrofa with 3 samples.

Results

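The 10 genes described here encode the laminin chains LAMA2, LAMA4, LAMA5, LAMB1, LAMB2 and LAMC1, the nidogens NID1 and NID2, and the heparan sulfate proteoglycans perlecan (HSPG2) and agrin (AGRN). They were taken by symbol from a list of basement membrane genes, without use of their values. All 10 had 1 row in each count table, out of 26466 gene symbols in all.

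The study set 3 cell populations from pig side by side, with 1 RNA library each. BM-MSC are labelled as mesenchymal stem cells derived from bone marrow, BMAC as attached cells of bone marrow, and PBMC as mononuclear cells of peripheral blood. The labels give no animal, breed, age, sex, passage, culture condition or treatment for any of them. Libraries were made with Lexogen QuantSeq, a method that sequences close to the 3' ends of polyadenylated RNA, and held 17069344 counts in BM-MSC, 15122997 in BMAC and 15445903 in PBMC.

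Basement membranes are thin sheets of matrix under epithelia and endothelia and around muscle, fat and nerve cells. Laminins are trimers of 1 alpha, 1 beta and 1 gamma chain. Many, but not all, of them polymerise on the cell surface, where integrins and dystroglycan can bind the alpha chain. Nidogens and perlecan link the laminin network to the collagen IV network, and agrin ties laminin to dystroglycan and carries heparan sulfate. In bone marrow, laminins with the alpha 4 and alpha 5 chains lie in the walls of sinusoids and arterioles, and stromal cells are known to make several chains.

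Levels are given as CPM, the counts per 1000000 counts of the library. Intervals in parentheses are 95% exact intervals for counting error only, since there was no second library of any population. Differences therefore have no replicate check, and they were neither tested nor given p-values. A gene was called different when its log2 ratio of (CPM + 1) was at least 2 in size, a 4-fold difference, and its level reached 10 CPM, from 10 counts or more, in the higher library. Levels of different genes were not ranked against each other, because 3' end counts depend on how well each annotated end matches the transcript made.

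The sums of marrow stromal and pan-leukocyte markers went with the labels, but not every single marker did. The 8 marrow stromal markers summed to 13434 CPM in BM-MSC and 11537 in BMAC, against 52.3 CPM in PBMC. The 4 pan-leukocyte markers summed to 2.46 CPM in BM-MSC and 2.31 in BMAC, against 4561 CPM in PBMC. Among the stromal markers, only THY1 was not called higher in BMAC than in PBMC, at 69.8 CPM against 48.7 CPM. It had 364 CPM in BM-MSC. Among the monocyte and macrophage markers, only CD14 was higher in BMAC than in PBMC, at 17.3 CPM against 12.9 CPM. Endothelial cells make many of the same laminin chains, so their 8 markers were read as well. These summed to 20.1 CPM in BM-MSC and 32.8 in BMAC, against 165 CPM in PBMC, and PECAM1, which leukocytes also express, held 15.2 CPM of that in BM-MSC and 27.7 in BMAC, against 145 CPM in PBMC. CLDN5 had 0 counts in all 3 libraries, KDR had 0 counts in BMAC, CDH5 never exceeded 0.647 CPM and EMCN never exceeded 0.469 CPM. VWF had 2.34 CPM in BM-MSC and 3.50 in BMAC, against 5.24 CPM in PBMC. TEK, which overlaps LOC102166359, had 0.410 CPM in BM-MSC and 0.727 in BMAC, against 12.2 CPM in PBMC. ESAM had 1.11 CPM in BM-MSC and 0.198 in BMAC, against 0.453 CPM in PBMC. In such bulk libraries, fewer cells of a type and less RNA per cell cannot be told apart.

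Of the alpha chains, LAMA4 and LAMA5 were far higher in both marrow populations than in blood, and LAMA2 was high in BM-MSC alone. LAMA4, the alpha chain of endothelial and mesenchymal laminins, stood at 137 CPM (132 to 143) in BM-MSC and 367 CPM (357 to 377) in BMAC, against 1.29 CPM (0.791 to 2.0) in PBMC. That made LAMA4 106-fold higher (68.6 to 174) in BM-MSC and 283-fold higher (183 to 464) in BMAC than in PBMC. LAMA5, the broadly expressed laminin alpha chain, stood at 113 CPM (108 to 118) in BM-MSC and 72.3 CPM (68.1 to 76.7) in BMAC, against 0.388 CPM from 6 counts in PBMC. LAMA5 was thus 290-fold higher (133 to 792) in BM-MSC and 186-fold higher (85.2 to 508) in BMAC, with wide intervals that come from the few counts in PBMC.

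LAMA2, the alpha chain of muscle and nerve basement membranes whose loss causes a congenital muscular dystrophy in humans, followed another order. It had 674 counts or 39.5 CPM (36.6 to 42.6) in BM-MSC and 60 counts or 3.97 CPM (3.03 to 5.11) in BMAC, against 131 counts or 8.48 CPM (7.09 to 10.1) in PBMC. The 3 intervals did not overlap, and LAMA2 was the 1 gene of the 10 with a lower level in BMAC than in PBMC. It was 4.66-fold higher (3.86 to 5.66) in BM-MSC than in PBMC and 2.14-fold lower (1.56 to 2.95) in BMAC than in PBMC. The first of these lay just past the size rule, at a log2 ratio of 2.09, and fell short of it at 1.72 with a pseudocount of 5 CPM. The second could not be called, because neither library reached 10 CPM.

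The beta 1 and gamma 1 chains, which most laminins of these tissues share, were high in both marrow libraries. LAMC1 stood at 309 CPM (300.3 to 317) in BM-MSC and 330.2 CPM (321 to 340) in BMAC, against 5.11 CPM (4.05 to 6.37) in PBMC. LAMC1 was 60.3-fold higher (48.3 to 76.3) in BM-MSC and 64.6-fold higher (51.7 to 81.7) in BMAC than in PBMC. LAMB1 stood at 113 CPM (108 to 118) in BM-MSC and 181 CPM (174 to 188) in BMAC, against 4.14 CPM (3.19 to 5.29) in PBMC. LAMB1 was 27.3-fold higher (21.3 to 35.6) in BM-MSC and 43.6-fold higher (34.0 to 56.8) in BMAC than in PBMC. LAMB2, the beta chain of synaptic, vascular and kidney glomerular laminins, was low throughout, with 81 counts in BM-MSC and 84 in BMAC, against 1 count in PBMC. Its 4.75 CPM (3.77 to 5.90) in BM-MSC and 5.55 CPM (4.43 to 6.88) in BMAC stayed under the floor of 10 CPM. With a single count in PBMC, its ratios to PBMC of 73.3 (12.8 to 2930) in BM-MSC and 85.8 (15.0 to 3428.5) in BMAC are barely bounded from above.

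**Figure D1:**
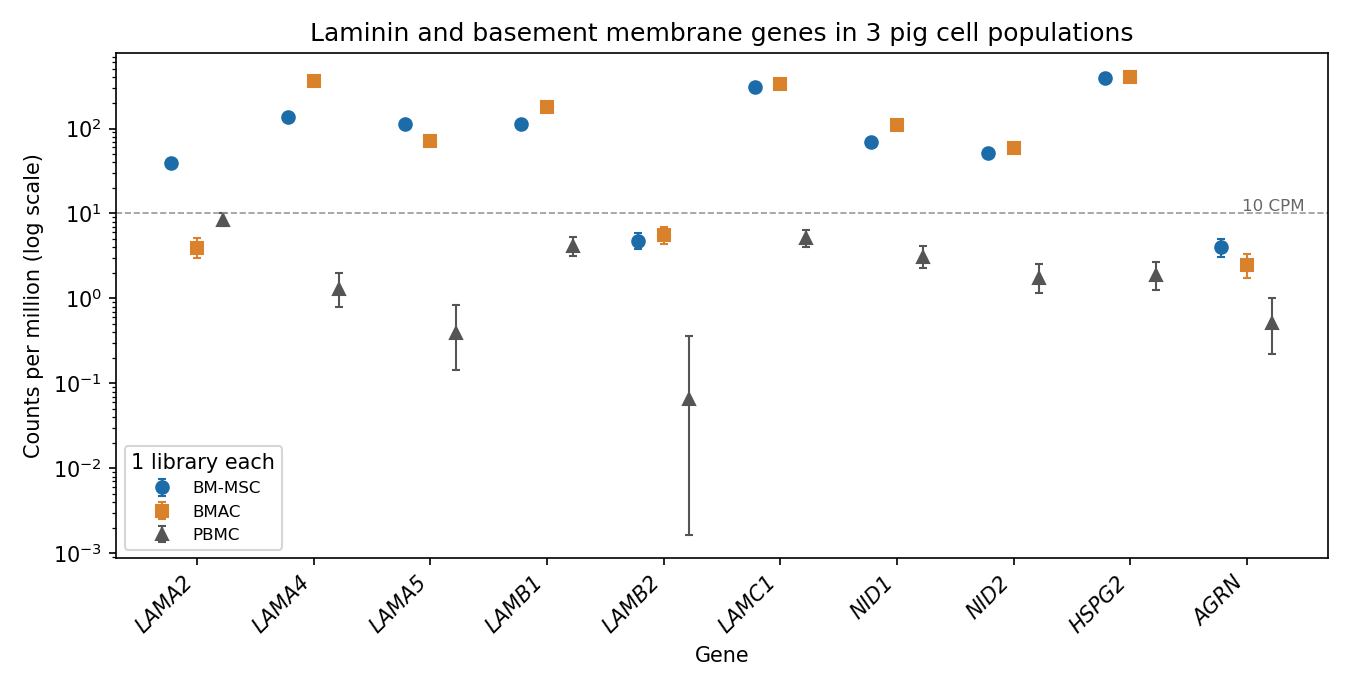
Level of each of the 10 genes in CPM on a log scale, in BM-MSC (circles), BMAC (squares) and PBMC (triangles), 1 library each, with 95% exact Poisson intervals for counting error and a dashed line at 10 CPM. The marrow points lie between 2.45 and 406 CPM, every PBMC point lies under 10 CPM, and LAMA2 is the gene for which the BMAC point lies below the PBMC point.

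Both nidogens, the rod-shaped proteins that bind the laminin gamma 1 chain and collagen IV, were higher in the marrow libraries. NID1 had 68.7 CPM (64.8 to 72.7) in BM-MSC and 109 CPM (104 to 114) in BMAC, against 3.11 CPM (2.29 to 4.12) in PBMC. NID1 was 22.1-fold higher (16.6 to 30.1) in BM-MSC and 35.1-fold higher (26.3 to 47.8) in BMAC. NID2 had 52.1 CPM (48.8 to 55.7) in BM-MSC and 59.6 CPM (55.8 to 63.7) in BMAC, against 1.75 CPM (1.15 to 2.54) in PBMC. NID2 was 29.8-fold higher (20.4 to 45.5) in BM-MSC and 34.1-fold higher (23.3 to 52.1) in BMAC.

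Perlecan and agrin need a caution on what was counted. HSPG2 had 397 CPM (388 to 407) in BM-MSC and 406 CPM (396 to 416) in BMAC, against 1.88 CPM (1.26 to 2.70) in PBMC. The row LDLRAD2, which overlaps HSPG2 in RefSeq's assembly Sscrofa11.1, held 360 CPM in BM-MSC and 362 in BMAC, against 1.23 CPM in PBMC. Since the strand setting is not given in the sources used here, reads of HSPG2 and LDLRAD2 cannot be told apart. HSPG2 as counted was 212-fold higher (147 to 316) in BM-MSC and 216-fold higher (150 to 323) in BMAC than in PBMC. If every LDLRAD2 count is taken off HSPG2, a choice made after seeing the values, HSPG2 keeps 37.5 CPM in BM-MSC and 43.8 in BMAC, against 0.647 CPM in PBMC. The folds over PBMC then become 57.9 (31.3 to 121) in BM-MSC and 67.6 (36.5 to 142) in BMAC, still past the size rule. AGRN, best known for clustering acetylcholine receptors at the neuromuscular junction, had 68 counts or 3.98 CPM (3.09 to 5.05) in BM-MSC and 37 counts or 2.45 CPM (1.72 to 3.37) in BMAC, against 8 counts or 0.518 CPM (0.224 to 1.02) in PBMC. The overlapping row LOC110261384 held more counts than AGRN throughout, with 26.5 CPM in BM-MSC and 5.03 in BMAC, against 6.54 CPM in PBMC, so the AGRN values are uncertain. AGRN stayed under the floor in all 3 libraries.

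Set against PBMC, 8 of the 10 genes were called higher in BM-MSC, where 14.3% of 11428 genes tested were called higher, and 7 of 10 in BMAC, where 14.0% of 11371 were. Of the 10, 0 were called lower in either marrow population, where 15.7% of all tested genes were lower in BM-MSC and 12.8% in BMAC. All 8 and all 7 reached 10 CPM through the marrow library alone, which favours a call: of all genes that did so, 60.3% were called higher in BM-MSC and 59.8% in BMAC. With no floor set, 9 of the 10 genes were 4-fold higher in BM-MSC, beside 8.23% of genes with a count, and 8 of the 10 in BMAC, beside 7.92%. The 1 CPM added to each level still kept genes of low level from a 4-fold ratio. Both shares therefore include genes that could not pass, and they do not remove the effect of a floor. The median log2 ratio over all 10 was 4.37 in BM-MSC and 4.94 in BMAC, beside -0.16 in BM-MSC and -0.12 in BMAC over all genes tested. Both comparisons use the same PBMC library. TMM scaling moved the median of all tested genes to 0.23 in BM-MSC and 0.21 in BMAC and that of the 10 genes to 4.65 in BM-MSC and 5.18 in BMAC, so the distance between them changed little. With TMM, 58.5% of all calls against PBMC were higher in BM-MSC and 60.05% in BMAC, beside 47.6% in BM-MSC and 52.3% in BMAC with the library total.

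**Figure D2:**
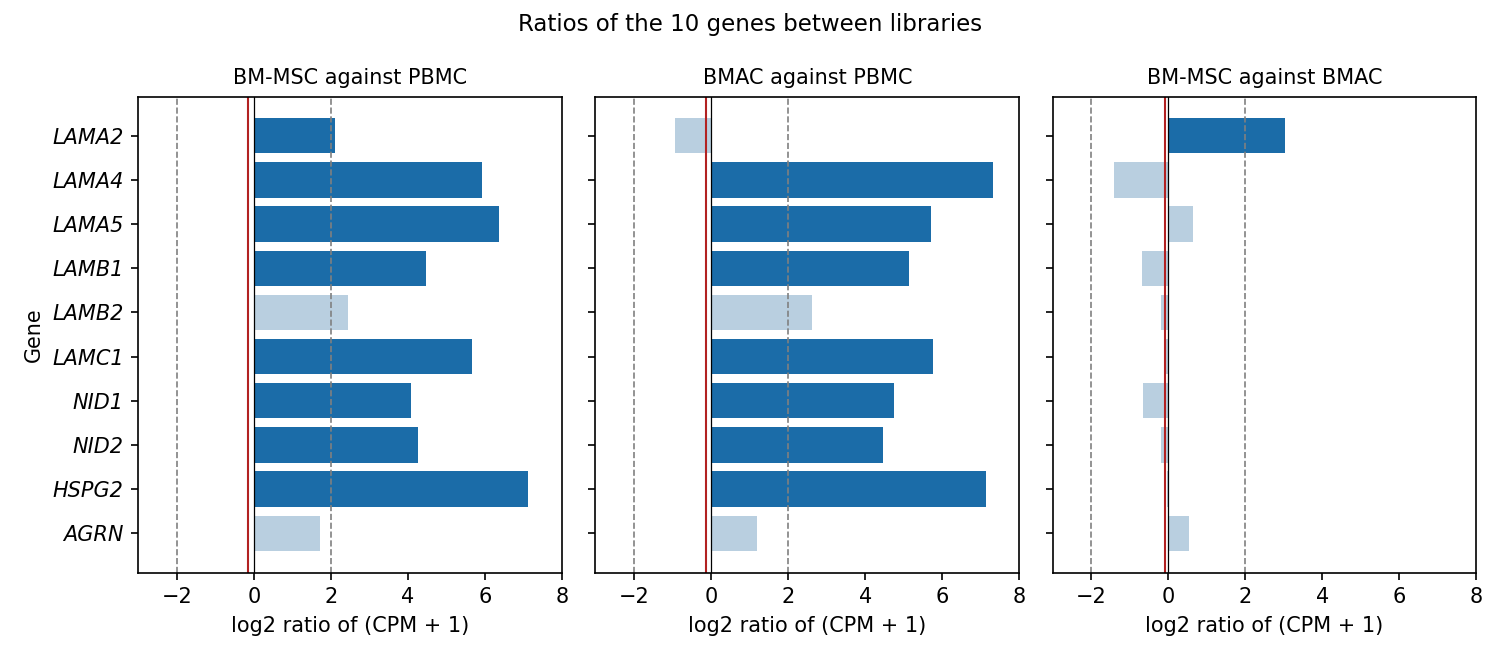
log2 ratio of (CPM + 1) of each gene in BM-MSC against PBMC, BMAC against PBMC and BM-MSC against BMAC, with 1 library on each side; dark bars passed the size rule, dashed lines mark a log2 ratio of 2 in either direction and the red line is the median of all genes tested. The median over the 10 genes is 4.37 in BM-MSC and 4.94 in BMAC against PBMC and -0.14 between the marrow libraries, where LAMA2 has the one dark bar, and LAMB2 exceeds 2 against PBMC but stays light because it is under 10 CPM.

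The marrow populations were close to each other for most of the 10 genes. In BM-MSC against BMAC, 1 of 10 genes was called higher, where 2.90% of 10303 genes were, and 0 of 10 lower, where 3.21% were. That gene was LAMA2, 9.95-fold higher (7.64 to 13.2) in BM-MSC. LAMA2 reached 10 CPM in BM-MSC alone, as did 774 genes in all, of which 28.2% were called higher in BM-MSC. In all, 8 of the 10 genes were within 2-fold, a share near the 80.7% of all tested genes. The sets differ, since these 8 include LAMB2 and AGRN, which stayed under the floor and were not tested. LAMA2 and LAMA4, both tested, were not within 2-fold.

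Among the uncalled genes, LAMA4 differed most and was 2.67-fold lower (2.54 to 2.80) in BM-MSC than in BMAC. LAMB1 and NID1 were lower in BM-MSC by 1.60-fold (1.51 to 1.69) and 1.59-fold (1.47 to 1.71). LAMA5 was 1.56-fold higher (1.45 to 1.68) and AGRN 1.63-fold higher (1.08 to 2.50) in BM-MSC. LAMC1 and NID2 were 1.07-fold (1.03 to 1.11) and 1.14-fold (1.04 to 1.26) lower in BM-MSC. The ratio of HSPG2 was 0.979 (0.946 to 1.01) and that of LAMB2 0.854 (0.622 to 1.17), BM-MSC over BMAC, and both intervals include 1. The sign of the HSPG2 log2 ratio, -0.03, turned to 0.02 with TMM, 0.04 with median-of-ratios factors and 0.01 with a total that leaves out ribosomal RNA and mitochondrially encoded genes.

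The proportions of the chains were compared next. A ratio of 2 genes within a library, compared between libraries, does not depend on the library total, and a counting bias of either gene that is the same in each library cancels. The count ratio of LAMA4 to LAMA2 was 3.48 in BM-MSC and 92.4 in BMAC, against 0.153 in PBMC. It was 26.6-fold lower (20.3 to 35.3) in BM-MSC than in BMAC. The ratio of LAMA5 to LAMA4 was 0.821 in BM-MSC and 0.197 in BMAC, 4.17-fold higher (3.81 to 4.56) in BM-MSC. The ratio of LAMC1 to LAMB1 was 1.49-fold higher (1.39 to 1.60) in BM-MSC than in BMAC, and that of NID2 to NID1 1.39-fold higher (1.23 to 1.57). For LAMB2 to LAMB1 the factor was 1.36 (0.987 to 1.88), an interval that includes 1. AGRN to HSPG2 was 1.66-fold higher (1.10 to 2.56) in BM-MSC, under the caution on their overlapping rows given above.

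**Figure D3:**
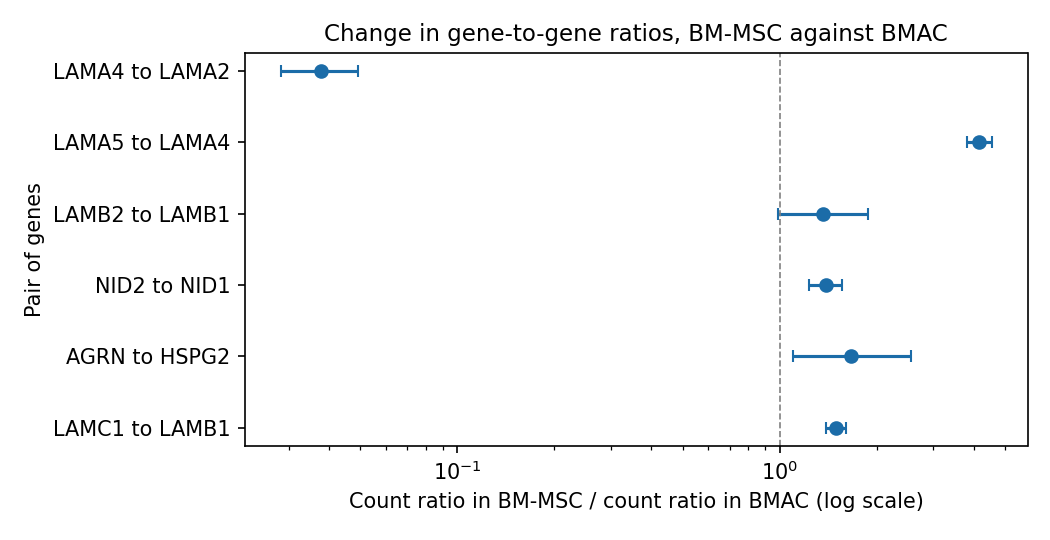
For 6 pairs of genes, the count ratio in BM-MSC divided by the count ratio in BMAC on a log scale, with 95% exact conditional intervals for counting error and a dashed line at 1. LAMA4 to LAMA2 lies far to the left at 0.0376, LAMA5 to LAMA4 lies to the right at 4.17, and the other 4 lie between 1.36 and 1.66.

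Of 8 pericyte and smooth muscle markers, ACTA2 and NOTCH3 were called higher in BM-MSC than in BMAC, as LAMA2 was, and the others were not called. Of all genes tested in this comparison, 2.90% were called higher in BM-MSC and 3.21% lower. The 8 pericyte and smooth muscle markers summed to 6866 CPM in BM-MSC and 552 in BMAC, against 186 CPM in PBMC; 6 of them reached 10 CPM in BM-MSC, 4 in BMAC and 1 in PBMC. ACTA2, smooth muscle actin, made up most of this in BM-MSC at 6566 CPM, against 152 CPM in BMAC. NOTCH3, a receptor of mural cells whose row overlaps LOC100628051, had 30.1 CPM in BM-MSC against 0.992 CPM in BMAC. MYH11, smooth muscle myosin, had 23.2 CPM in BM-MSC against 5.55 CPM in BMAC and fell just short of the size rule at a log2 ratio of 1.88. The pericyte marker CSPG4 was 1.25-fold higher and MCAM, which overlaps CBL, 1.28-fold higher in BM-MSC, while PDGFRB was lower with 152 CPM in BM-MSC against 319 CPM in BMAC. RGS5 had 0.762 CPM in BM-MSC against 1.12 CPM in BMAC, and DES had 1 count in BM-MSC and 0 counts in BMAC and PBMC. The 4 skeletal muscle markers with a row summed to 0.703 CPM in BM-MSC and 0.727 in BMAC, against 1.23 CPM in PBMC, and MYOD1 and MYF5 had 0 counts in each library. The 4 Schwann cell markers summed to 1.52 CPM in BM-MSC and 0.727 in BMAC, against 13.6 CPM in PBMC. The part of mural cell genes in the LAMA2 difference was not tested.

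The remaining laminin chains were sparse. Of the other chains listed, 0 of 6 were called in any comparison, and LAMA3, an epithelial alpha chain, was the 1 that reached 10 CPM. LAMA3 had 19.5 CPM in BM-MSC and 17.8 in BMAC, against 7.57 CPM in PBMC. The 5 epithelial markers with a row summed to 2.34 CPM in BM-MSC and 2.05 in BMAC, against 14.2 CPM in PBMC.

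Several other components of basement membranes differed between the marrow libraries. Of 26 listed, 17 were tested in BM-MSC against PBMC, with 9 called higher and 0 lower, and 13 in BMAC against PBMC, with 8 higher and 1 lower. The shares of all tested genes were 14.3% higher and 15.7% lower in BM-MSC, and 14.0% higher and 12.8% lower in BMAC, and the lists that follow are read beside the same shares. Between BM-MSC and BMAC 16 were tested, 5 of them higher in BM-MSC and 2 lower, beside the 2.90% and 3.21% of all genes. In BM-MSC 11 of the 17, and in BMAC 7 of the 13, had under 10 CPM in PBMC and so passed through the marrow library. Over all 26, the median log2 ratio was 1.12 in BM-MSC and 0.91 in BMAC against PBMC and 0.22 between the marrow libraries, beside -0.16, -0.12 and -0.09 over all genes tested. COL4A1 and COL4A2, the chains of the common collagen IV network to which nidogens and perlecan link laminin, overlap each other in the assembly. COL4A1 had 293 CPM in BM-MSC and 17.7 in BMAC, against 1.75 CPM in PBMC, and was 16.5-fold higher (14.6 to 18.7) in BM-MSC than in BMAC. COL4A2 had 228 CPM in BM-MSC and 41.3 in BMAC, against 2.72 CPM in PBMC, and was 5.54-fold higher (5.09 to 6.04) in BM-MSC than in BMAC. LAMC1, by comparison, lay within 1.07-fold in these libraries.

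COL15A1, a collagen at the outer face of basement membranes, had 403 CPM in BM-MSC and 63.5 in BMAC, against 1.88 CPM in PBMC. COL18A1, its relative and the source of endostatin, had the reverse order in marrow, with 15.3 CPM in BM-MSC and 92.5 in BMAC, against 5.96 CPM in PBMC. The matrix protein ECM1, which binds perlecan, had 54.8 CPM in BM-MSC and 402 in BMAC, against 24.5 CPM in PBMC, while FBLN2, a nidogen-binding fibulin, had 91.2 CPM in BM-MSC and 6.08 in BMAC, against 1.68 CPM in PBMC. SPARC, a collagen IV binding protein that overlaps LOC110257252, had 365 CPM in BM-MSC and 121 in BMAC, against 0 counts in PBMC. With 0 taken as 3 counts, SPARC was 1879-fold higher in BM-MSC and 621-fold higher in BMAC. The lower limits of its exact intervals were 1528-fold in BM-MSC and 504-fold in BMAC. FREM2, which overlaps UFM1, showed the smallest ratios among the tested genes of the list, with 38.1 CPM in BM-MSC and 39.3 in BMAC, against 39.9 CPM in PBMC. FRAS1 was the component called lower in BMAC than in PBMC, at 4.69 CPM against 24.7 CPM.

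Receptors came next. Of 18 listed, 12 were tested against PBMC, with 5 higher and 2 lower in BM-MSC and 4 higher and 2 lower in BMAC, and 0 of 10 tested were called in BM-MSC against BMAC. The 2 lower of 12 are near the 15.7% of all tested genes in BM-MSC and the 12.8% in BMAC, and 3 of the 12 had under 10 CPM in PBMC in each comparison. The median log2 ratio over all 18 was 0.95 in BM-MSC and 0.79 in BMAC against PBMC. DAG1, which encodes dystroglycan, had 223 CPM in BM-MSC and 194 in BMAC, against 35.5 CPM in PBMC. Of the integrin alpha chains that bind laminins, ITGA3 had 23.8 CPM in BM-MSC and 51.8 in BMAC, against 4.79 CPM in PBMC. ITGA6, an alpha chain of receptors for LAMA5-containing laminins, was lower in both marrow populations. It had 4.51 CPM in BM-MSC and 2.51 in BMAC, against 34.1 CPM in PBMC. ITGA9, the other gene called lower in both, had 4.80 CPM in BM-MSC and 1.39 in BMAC, against 22.9 CPM in PBMC. The integrin beta chain ITGB1 had 1029 CPM in BM-MSC and 708 in BMAC, against 245 CPM in PBMC. ITGB1 was called higher than in PBMC in BM-MSC but not in BMAC. The syndecan SDC4, a cell surface heparan sulfate proteoglycan, had 51.9 CPM in BM-MSC and 197 in BMAC, against 0.583 CPM in PBMC. CD44, a hyaluronan receptor on the list, had 153 CPM in BM-MSC and 509 in BMAC, against 456 CPM in PBMC, and its ratio in BMAC was the smallest among the 12 tested there.

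Inside the cell, dystroglycan is tied to actin by the dystrophin complex, of which 10 of 13 listed genes were tested against PBMC. In BM-MSC 3 were higher and 2 lower, and in BMAC 4 were higher and 2 lower, beside 14.3% higher and 15.7% lower of all tested in BM-MSC and 14.0% and 12.8% in BMAC. In each comparison 3 of the 10 had under 10 CPM in PBMC. Their median log2 ratio over all 13 was 0.77 in BM-MSC and -0.29 in BMAC. The sarcoglycan SGCD had 249 CPM in BM-MSC and 392 in BMAC, against 19.9 CPM in PBMC, and sarcospan, SSPN, had 98.9 CPM in BM-MSC and 188 in BMAC, against 0.647 CPM in PBMC. The syntrophin SNTB1 had 2.93 CPM in BM-MSC and 3.44 in BMAC, against 191 CPM in PBMC. DMD, dystrophin itself, whose row overlaps TRNAE-UUC, had the smallest ratio against PBMC among the 10 tested genes, with 41.7 CPM in BM-MSC and 65.0 in BMAC, against 79.4 CPM in PBMC. Of the enzymes that add the laminin-binding sugar to dystroglycan, 17 of 19 listed symbols had a row. With 15 tested in BM-MSC and 14 in BMAC, 1 of them was higher in each comparison with PBMC, POMGNT2, and 1 lower, which was LARGE2 in BM-MSC and ISPD in BMAC. Their median log2 ratio over 17 was 0.47 in BM-MSC and 0 in BMAC.

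**Figure D4:**
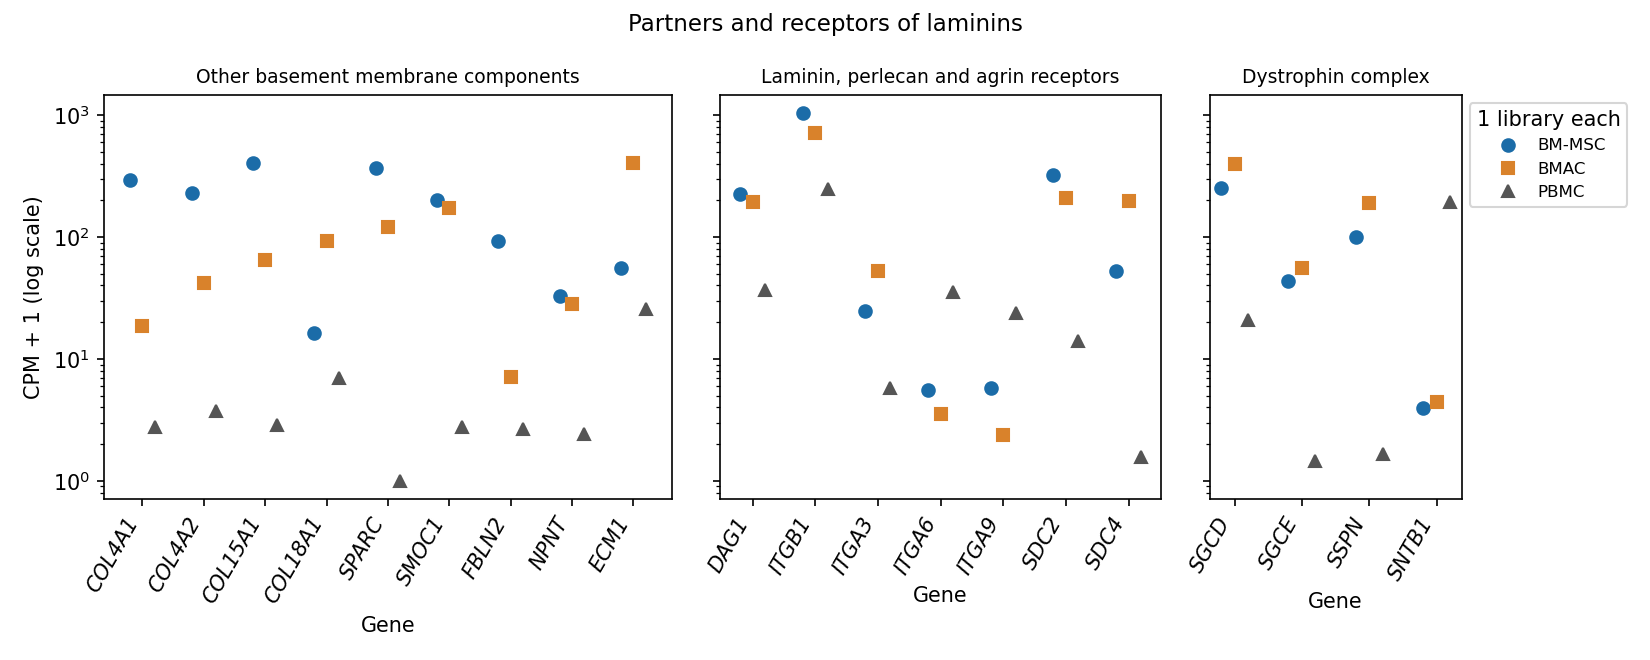
CPM + 1 on a log scale of 20 partner and receptor genes in BM-MSC (circles), BMAC (squares) and PBMC (triangles), 1 library each. COL4A1, COL4A2, COL15A1 and FBLN2 lie higher in BM-MSC than in BMAC, COL18A1 and ECM1 lie lower, and ITGA6, ITGA9 and SNTB1 lie highest in PBMC.

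Perlecan, agrin and the syndecans carry heparan sulfate, and 23 genes that make and trim it were listed. In BM-MSC against PBMC 16 were tested, with 2 higher and 2 lower, and in BMAC against PBMC 17 were tested, with 4 higher and 1 lower. In BM-MSC these shares are close to the 14.3% and 15.7% of all tested genes, and in BMAC 14.0% of all were higher and 12.8% lower. Of those tested, 3 in BM-MSC and 4 in BMAC had under 10 CPM in PBMC. Between BM-MSC and BMAC 17 were tested, with 0 higher in BM-MSC and 2 lower, the sulfotransferase HS3ST3A1 and SULF1. The median log2 ratio over all 23 was -0.42 in BM-MSC and 0.20 in BMAC. XYLT1, which starts the sugar chain on the core protein, had 90.5 CPM in BM-MSC and 77.2 in BMAC, against 552 CPM in PBMC. SULF1, which removes sulfate groups outside the cell, had 248 CPM in BM-MSC and 1294 in BMAC, against 89.2 CPM in PBMC. HS3ST3A1 had 0.703 CPM in BM-MSC against 10.1 CPM in BMAC. EXT1, which extends the chain, had 166 CPM in BM-MSC and 539 in BMAC, against 189 CPM in PBMC, and was called in none of the comparisons.

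Another list held 11 genes for enzymes and helper proteins that fold, export or crosslink collagens. Collagen IV is among these collagens, but most of the 11 are not particular to it. Against PBMC, 8 of 11 were called higher in BM-MSC and 9 of 11 in BMAC, with 0 lower. Between BM-MSC and BMAC, 0 of 11 were called. The median log2 ratio of the 11 against PBMC was 4.01 in BM-MSC and 5.01 in BMAC, and 7 of them had under 10 CPM in PBMC and so passed through the marrow library. Of all genes tested 14.3% were higher in BM-MSC and 14.0% in BMAC, and of those that passed through the marrow library alone 60.3% were in BM-MSC and 59.8% in BMAC. PXDN, peroxidasin, which forms the sulfilimine crosslink of collagen IV, had 50.2 CPM in BM-MSC and 104 in BMAC, against 1.49 CPM in PBMC. SERPINH1, the collagen chaperone HSP47, had 616 CPM in BM-MSC and 457 in BMAC, against 0.129 CPM from 2 counts in PBMC. Of 19 proteases and inhibitors that act on basement membranes, 15 were tested in BM-MSC and 14 in BMAC against PBMC, and 12 were higher and 1 lower in each. These counts stand beside the same shares, since 12 of the 15 in BM-MSC and 11 of the 14 in BMAC had under 10 CPM in PBMC. The list had a median log2 ratio over all 19 of 3.98 in BM-MSC and 4.88 in BMAC. MMP14, a membrane-bound protease that cleaves laminin chains, had 360 CPM in BM-MSC and 395 in BMAC, against 0.324 CPM in PBMC. TIMP3, a matrix-bound inhibitor that overlaps SYN3, had 1023 CPM in BM-MSC and 1569 in BMAC, against 0.388 CPM in PBMC. CTSS, a lysosomal protease of leukocytes, was the lower one, with 20.2 CPM in BM-MSC and 19.4 in BMAC, against 401 CPM in PBMC.

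Likeness of pattern was measured for HSPG2 alone. It was picked by a rule on the highest CPM value, from which no rank between genes is read, and most of that level is shared with LDLRAD2. The 3 genes whose pattern over the 3 libraries was nearest to that of HSPG2, by distance of centred log2(CPM + 1) among 10447 genes, were LUM, LDLRAD2 and VASN. Their distances were 0.0971, 0.176 and 0.180. These rest on the 1 CPM added to each level, which bounds the ratio of a gene with few or 0 counts in PBMC. In BM-MSC against PBMC, LUM and HSPG2 both had a log2 ratio of 7.11. Without the added 1 CPM, HSPG2 was 212-fold higher there, and the interval of LUM began at 572-fold. Nearness by this measure is therefore not likeness of fold. LUM, the collagen-binding proteoglycan lumican, had 137 CPM in BM-MSC and 152 in BMAC, against 0 counts in PBMC. LDLRAD2 is the row that overlaps HSPG2, and reads of both cannot be told apart. VASN, which overlaps LOC100513346, had 142 CPM in BM-MSC and 127 in BMAC, against 0.0647 CPM from 1 count in PBMC.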

How the data were processed

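RNA of 3 pig cell populations, 1 library each, was prepared with Trizol and a Lexogen QuantSeq kit from 500 ng of total RNA, per the labels' protocols. The authors deposited raw counts per gene row: values are whole numbers, with totals that differ between libraries. The count column of BM-MSC is headed pMSC and was assigned by GEO's record of which sample its file belongs to. The submitters' processing notes name Bowtie2 and bedtools but no version. For genome build, annotation and strand setting, the sources used here give nothing. The 26965 rows were summed to 26466 symbols. RefSeq's table for Sscrofa11.1 was used for names, and overlaps were found from its gene coordinates. It also marked the ribosomal RNA and mitochondrially encoded genes. A gene is named with an overlapping row that holds at least 25% of its count.

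CPM used the library total. Level intervals are exact Poisson, and fold intervals exact conditional (Clopper-Pearson), at 95%; they cover counting error only. With 3 counts taken as the limit that 0 counts allow, the limits were 0.176 CPM for BM-MSC, 0.198 for BMAC and 0.194 for PBMC. Genes, lists and comparisons were chosen with earlier results of these data known. All 10 genes are named; of each other list, the rule took up to 4 called genes with the largest ratios and the gene with the smallest, and a selection of those is printed. ITGA3, ITGB1, COL4A2, COL18A1, FRAS1 and PXDN, and CTSS against PBMC, were added after their values were seen. Of the marker lists, T cell markers summed to 1.23 CPM in BM-MSC and 1.19 in BMAC, against 812 CPM in PBMC, B cell markers to 2.93 in BM-MSC and 2.18 in BMAC, against 1131 CPM in PBMC, monocyte and macrophage markers to 7.56 in BM-MSC and 19.2 in BMAC, against 454 CPM in PBMC, and megakaryocyte and platelet markers to 47.5 in BM-MSC and 37.2 in BMAC, against 34.8 CPM in PBMC. GP9, which overlaps RAB43, held most of the last sum in marrow, with 45.7 CPM in BM-MSC and 34.1 in BMAC, against 18.2 CPM in PBMC. ITGA2B was lower in marrow, with 1.82 CPM in BM-MSC and 0.595 in BMAC, against 14.8 CPM in PBMC. PPBP had 0 counts in BM-MSC and 2.51 CPM in BMAC, against 1.81 CPM in PBMC, and GP1BB had 0 counts in each library. Alternatives were TMM (edgeR 4.0.16) and median-of-ratios scaling, another total, pseudocounts, floors, fold limits and leaving out overlapping rows. Python 3.11.15, scipy 1.17.1 and R 4.3.3 were used.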

Additional observations from a re-analysis of the deposited data

How the results depend on the processing

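Calls of the 10 genes against PBMC moved by 1 gene at most: 7 to 9 were called in BM-MSC and 6 to 8 in BMAC over the 12 alternatives, all higher than PBMC. LAMA2 was no longer called in BM-MSC against PBMC with a pseudocount of 5 CPM, a floor of 50 CPM or an 8-fold rule. HSPG2 dropped out without overlapping rows, by construction. In BM-MSC against BMAC, where 1 gene was called, the count was 0 with a floor of 50 CPM, which LAMA2 does not reach, and 2 with a 2-fold rule, LAMA2 higher and LAMA4 lower; the other 10 alternatives left LAMA2 as the call. Taking the overlapping counts off HSPG2 and LAMB1 was chosen after seeing the data and changed no call. No called gene changed direction under any scaling, total or pseudocount tried. Depth limits LAMB2, AGRN and every PBMC level, of which LAMB2 rests on 1 count. No paired analysis was possible because each population has 1 library, and for the same reason no library could be left out.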
